A study of Mus musculus with 16 samples.

Results

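The genes of MHC class I antigen presentation were described in tumor tissue of mouse liver metastases. The 10 genes were chosen by name: H2-K1, H2-D1, B2m, Tap1, Tap2, Tapbp, Psmb8, Psmb9, Psmb10 and Nlrc5. All 10 had a row in every count table, and all 10 were among the 13968 of 21959 listed genes that passed the filter on low counts. The series held RNA-seq libraries of 16 mice, 4 in each of 4 groups. Every mouse was a 6-week-old male wild-type C57BL/6 animal whose spleen had been injected with MC38, a colon adenocarcinoma line of the same strain. The control group received PBS, the SB525334 group an oral inhibitor of the TGF-β type I receptor (ALK5) at 20 mg/kg, the KN046 group an antibody against PD-L1 and CTLA-4 at 10 mg/kg given into the peritoneum, and the combination group both agents at those doses. The labels number the libraries within a group and do not name the animals, so p-values measure the spread between these libraries. The comparisons address whether TGF-β receptor inhibition, checkpoint blockade or both changed the class I pathway in the metastases.

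MHC class I molecules show peptides from inside a cell to CD8+ T cells at the cell surface. The proteasome cuts cytosolic proteins, the TAP transporter carries the peptides into the endoplasmic reticulum, and the loading complex places them on a heavy chain paired with β2-microglobulin. Interferon-γ induces the pathway through IRF1 and the transactivator NLRC5, and replaces the catalytic subunits of the proteasome by inducible ones, which makes the immunoproteasome. Loss of this pathway is a known way by which tumor cells escape T cells, while hepatocytes express it at a low level.

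Total counts were between 18368994 and 23877131 per library, with a median of 20183680. Levels are given as CPM, a gene's counts relative to the TMM-scaled size of its library. Differences are log2 fold changes from 1 edgeR quasi-likelihood model of the 4 groups, and adjusted p-values are by Benjamini-Hochberg over the 13968 genes, with a threshold of 0.05. Control mice 1 and 2, and control mice 3 and 4, were closer to each other (median chi-square of 1.25 and 0.956 over genes) than any other mice of 1 group (2.82 or more). They still differed by more than sampling noise, and results against control are also given with each of these pairs summed to 1 library. The tissue itself differed between groups. The summed level of 15 hepatocyte markers was between 15620 and 17960 CPM in control mice, 394.4 to 1933 in SB525334 mice, 9279 to 19550 in KN046 mice and 14.42 to 22.76 in combination mice. The summed level of 10 colon carcinoma or epithelial markers was between 150.7 and 248.7 CPM in control mice, 38.64 to 51.67 in SB525334, 123.9 to 201.1 in KN046 and 6.878 to 16.61 in combination mice. In control mice most of it came from Krt8 (54.28 to 111.2 CPM) and Krt18, keratins that hepatocytes also express. With the combination Krt8 was at most 0.8829 CPM and Krt18 at most 0.8277 CPM. Cdh1 was the highest marker of the list in those mice, at 5.186 to 12.21 CPM, against 13.69 to 25.7 CPM in control mice. Epcam was at or below 4.165 CPM in every mouse. Cdx2 was at most 0.05072 CPM in control mice and at 0 in every mouse of the 3 treated groups. These defining markers were thus low or absent in every group, the control group included. In bulk tissue, fewer cells of a type and less RNA per cell cannot be told apart.

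Promoter sequences are shown first, because interferon and NF-κB are known to act on class I genes through promoter elements, whose core letters were searched in these windows. RefSeq windows on GRCm38.p6 were found for 8 of the 10 genes, all but Tap2 and Nlrc5. Each line gives the 250 bases before a transcription start, 5′ to 3′ on the strand of the gene, with matches to the searched motifs in capitals. The lines show the heavy chains and their partner, the start region that Tap1 shares with Psmb9, and both other inducible subunits.
H2-K1 (chr17:34000348-34000597, minus strand): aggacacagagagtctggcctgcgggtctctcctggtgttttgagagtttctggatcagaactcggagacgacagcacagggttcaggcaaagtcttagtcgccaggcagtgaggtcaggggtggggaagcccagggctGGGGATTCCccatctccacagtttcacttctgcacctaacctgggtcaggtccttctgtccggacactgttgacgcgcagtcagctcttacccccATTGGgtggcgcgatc
H2-D1 (chr17:35262844-35263093, plus strand): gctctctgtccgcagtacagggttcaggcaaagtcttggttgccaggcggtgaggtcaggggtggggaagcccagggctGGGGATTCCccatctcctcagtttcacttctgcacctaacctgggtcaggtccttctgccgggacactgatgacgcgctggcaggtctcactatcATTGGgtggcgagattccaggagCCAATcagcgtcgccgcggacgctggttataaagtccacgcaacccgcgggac
B2m (chr2:122147437-122147686, plus strand): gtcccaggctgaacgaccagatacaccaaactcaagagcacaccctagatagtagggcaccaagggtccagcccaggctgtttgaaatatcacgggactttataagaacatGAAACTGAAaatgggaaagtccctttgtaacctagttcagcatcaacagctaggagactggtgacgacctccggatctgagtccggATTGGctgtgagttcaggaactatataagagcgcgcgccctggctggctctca
Tap1 (chr17:34187306-34187555, plus strand): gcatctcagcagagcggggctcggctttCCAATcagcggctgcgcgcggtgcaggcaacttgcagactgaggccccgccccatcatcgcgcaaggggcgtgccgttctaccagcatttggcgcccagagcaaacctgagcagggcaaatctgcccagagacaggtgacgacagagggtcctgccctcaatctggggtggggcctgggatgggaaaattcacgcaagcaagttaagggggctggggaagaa
Psmb8 (chr17:34197945-34198194, plus strand): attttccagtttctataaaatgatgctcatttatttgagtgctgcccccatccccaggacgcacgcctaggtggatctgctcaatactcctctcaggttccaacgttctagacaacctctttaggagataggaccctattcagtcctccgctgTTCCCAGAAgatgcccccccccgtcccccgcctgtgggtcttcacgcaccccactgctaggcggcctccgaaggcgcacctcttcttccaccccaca
Psmb10 (chr8:105938393-105938642, minus strand): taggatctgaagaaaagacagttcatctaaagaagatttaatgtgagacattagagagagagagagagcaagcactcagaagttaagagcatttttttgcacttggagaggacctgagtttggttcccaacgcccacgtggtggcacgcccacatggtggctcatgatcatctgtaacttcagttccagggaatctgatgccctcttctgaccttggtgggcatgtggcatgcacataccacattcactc

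The motifs were searched on both strands of each window of 250 bases before to 50 after a start. The κB-like letters GGGNNTTCC, a core to which NF-κB binds, matched in H2-K1 and H2-D1 at positions -111 and -171 from the start, and in 5.82% of all 32817 RefSeq windows. The letters GAAANNGAA, a core of the interferon-stimulated response element, matched in B2m at position -139 and in 8.55% of all windows. The letters TTCNNNGAA, the core of an interferon-γ-activated sequence, matched in Psmb8 at position -97 and in 8.29% of all windows. The CCAAT box, the core of the Y box of class I promoters, matched in H2-K1, H2-D1, B2m, Tap1, Tapbp and Psmb9 and in 37.4% of all windows. TGACGT, searched as the core of the X2 element, matched in no window of the 8 genes and in 7.51% of all windows. Near forms were not searched, and the printed lines hold TGACGC in H2-K1 and H2-D1 and TGACGA in B2m and Tap1. Psmb10 held none of the 5 motifs. Tap1 and Psmb9 lie head to head with starts 226 bases apart, so their windows share 275 bases and the same CCAAT match. A match is a description of letters and was not tested as a binding site. Only these exact letters were searched, so a window without a match may still hold a variant of the element.

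On GRCm39, 7 of the genes lie on chromosome 17, including the neighbours Psmb9 (34400960 to 34406738, minus strand), Tap1 (34405996 to 34416199), Psmb8 (34416690 to 34420428) and Tap2 (34422501 to 34435829). B2m is on chromosome 2 (121977957 to 121983594), and Psmb10 (106662362 to 106665077) and Nlrc5 (95160984 to 95253900) are on chromosome 8. Tap1 and Psmb9 overlap by 743 bases on opposite strands, B2m lies inside the antisense gene Patl2, and Tapbp overlaps Zbtb22 by 3422 bases. The strand setting of the counting was not given in the sources used here, so reads from overlapping genes cannot be told apart. Stretches of 75 bases that also occur in the canonical transcript of another listed gene made up 6.85% of the H2-D1 transcript, shared most with H2-Q1, 1.55% of the H2-K1 transcript and 0.0689% of that of Tapbp. The other 7 members had no such stretch. Among the other heavy chains named, the share was 25.1% for H2-T22, 24.7% for H2-Q7, 9.94% for H2-T23 and 6.24% for H2-Q10. All of these heavy chains are uncertain to that extent where reads align to several of them.

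Compared per exon length, as CPM per kilobase (RPKM), H2-D1 was highest in the control group at 870.4 ± 177 (SD, n = 4), ahead of B2m at 725 ± 133 and H2-K1 at 613.1 ± 102. The ranges of these 3 genes overlapped between mice, but within each of the 4 control mice the order was H2-D1, B2m, H2-K1, and the ratio of H2-D1 to H2-K1 was between 1.36 and 1.46. Tapbp followed at 51.34 ± 0.913 and Psmb10 at 47.08 ± 4.36, then Tap1 at 22.6 ± 2.59. Nlrc5 at 15.5 ± 5.97 and Psmb9 at 14.7 ± 0.623 did not differ beyond their spread, nor did Tap2 at 7.396 ± 0.991 and Psmb8 at 7.099 ± 1.12, and each of these orders held in 2 of the 4 mice. With the length of the canonical transcript, a choice made after the data had been seen, B2m came first at 1406 ± 258 RPKM. Psmb9 then stood above Nlrc5, and Psmb8 above Tap2.

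Among the 10 genes, those for peptide transport, the loading factor Tapbp and the immunoproteasome were higher with the combination than with KN046 alone. Of the 10 genes, 6 rose (Tap1, Tap2, Tapbp, Psmb8, Psmb9 and Psmb10) and 0 fell, beside 9.89% of all genes tested that were higher and 14.5% that were lower. The rises were 1.67-fold to 3.09-fold, and the largest was that of Psmb10. H2-K1, H2-D1, B2m and Nlrc5 did not pass the test. The median log2 difference of the 10 genes was 0.792, against 0.000807 over all genes tested.

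**Figure D1:**
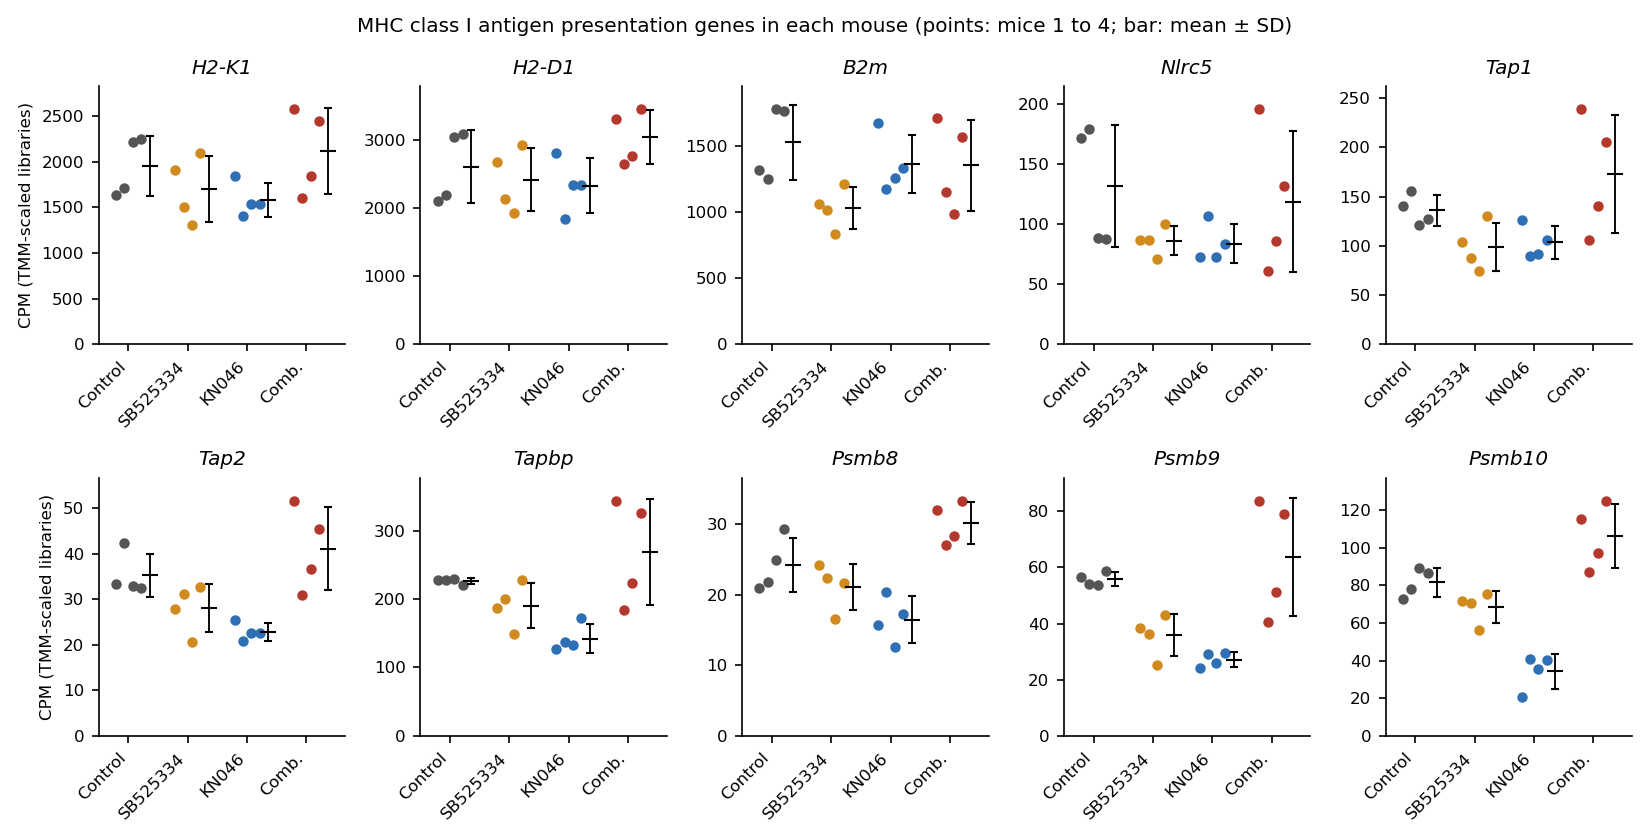
CPM of each of the 10 genes (y axis, linear, from 0) in each of the 16 mice by treatment group (x axis), with points for mice 1 to 4 from left to right and a bar for the mean ± SD. Psmb10 in the 4 KN046 mice lies between 20.73 and 41.03 CPM, below every mouse of the other groups, and the 4 combination mice spread most widely for Nlrc5, Tap1 and Psmb9.

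Psmb10 encodes the inducible trypsin-like subunit of the immunoproteasome. Its level was 72.56, 78.19, 88.96 and 86.44 CPM in control mice 1 to 4, and 71.56, 70.46, 55.98 and 75.51 CPM with SB525334. It was 20.73, 41.03, 35.37 and 40.21 CPM with KN046, and 115.3, 87.18, 96.94 and 124.8 CPM with the combination. The KN046 mice lay below all mice of the other groups, and 3 of the 4 combination mice lay above every control mouse. Psmb10 rose by a log2 difference of 1.63 (standard error 0.177, adjusted p = 1.716e-06 from edgeR) with the combination compared with KN046, a 3.09-fold difference. Compared with the control group, it was lower with KN046 by a log2 difference of -1.25 (standard error 0.176, adjusted p = 0.004516 from edgeR).

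Psmb9 encodes another inducible catalytic subunit of the immunoproteasome. It had 56.73, 54.01, 53.86 and 58.79 CPM in control mice, and 38.6, 36.35, 25.39 and 43.21 CPM with SB525334. It had 24.09, 29.32, 25.82 and 29.41 CPM with KN046, and 83.7, 40.61, 51.26 and 79.09 CPM with the combination. Control mice lay above all mice given a single agent, and combination mice 1 and 4 were higher than every control mouse while mice 2 and 3 were lower. The log2 difference of Psmb9 between the combination and KN046 was 1.23 (standard error 0.196, adjusted p = 0.0001582 from edgeR). Psmb9 was also lower than in the control group with KN046 (-1.04, standard error 0.195, adjusted p = 0.01664 from edgeR) and with SB525334 (-0.64, standard error 0.193, adjusted p = 0.04389 from edgeR).

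Psmb8, the inducible chymotrypsin-like subunit, had 20.95, 21.73, 24.9 and 29.37 CPM in control mice, 15.72, 20.37, 12.52 and 17.3 with KN046, and 31.99, 26.98, 28.28 and 33.28 with the combination. Every combination mouse lay above every KN046 and every SB525334 mouse (16.52 to 24.14 CPM). Psmb8 rose 1.83-fold with the combination compared with KN046, a log2 difference of 0.87 (standard error 0.159, adjusted p = 0.0006668 from edgeR). With KN046 it had a log2 difference from control of -0.55 (adjusted p = 0.05876 from edgeR), and its adjusted p was 0.02191 in DESeq2, 0.2683 with the similar control mice summed, and from 0.01577 (without KN046 mouse 2) to 0.1664 with a mouse left out.

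Tap1 and Tap2 encode the chains of the peptide transporter. Tap2 had 33.37, 42.31, 32.86 and 32.45 CPM in control mice, 25.48, 20.76, 22.63 and 22.6 with KN046, and 51.55, 30.96, 36.52 and 45.3 with the combination. The KN046 mice lay below all control and all combination mice, and Tap2 rose with the combination compared with KN046 by a log2 difference of 0.85 (standard error 0.165, adjusted p = 0.001177 from edgeR). Tap1 had 126.4, 89.85, 91.87 and 105.8 CPM with KN046, against 238.3, 106.3, 140.6 and 205.2 with the combination. These mice overlapped, with combination mouse 2 below KN046 mouse 1, and the rise of Tap1 by 0.74 (standard error 0.213, adjusted p = 0.01907 from edgeR) was lost without combination mouse 1 (0.54, adjusted p = 0.05532) or mouse 4 (0.65, adjusted p = 0.05733). It was also lost in a fit of only these groups (adjusted p = 0.05275).

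Tapbp encodes tapasin, which bridges the transporter and the heavy chain. It had 228.4, 227.5, 229.1 and 220.4 CPM in control mice, 126.6, 136.7, 133.2 and 173 with KN046, and 343.6, 183.7, 223.2 and 326 with the combination. All KN046 mice lay below the mice of both other groups, and combination mice 1 and 4 were well above mice 2 and 3. Tapbp rose 1.89-fold with the combination compared with KN046, a log2 difference of 0.92 (standard error 0.174, adjusted p = 0.0008999 from edgeR).

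Nlrc5, the transactivator of class I promoters, had 171.6, 179.3, 88.1 and 87.43 CPM in control mice and 72.59, 106.9, 72.82 and 83.23 with KN046. It had 195.4, 61.19, 86.3 and 131.8 CPM with the combination. Control mice 1 and 2 stood apart from mice 3 and 4, and the combination mice spanned the whole range of the other groups. Its log2 difference between the combination and KN046 was 0.50 (95% interval -0.13 to 1.13, adjusted p = 0.2218 from edgeR).

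The heavy chains and β2-microglobulin did not pass the test in any pairwise comparison. H2-K1, a classical heavy chain, had between 1400 and 1838 CPM with KN046 and 2571, 1605, 1845 and 2446 CPM with the combination, a log2 difference of 0.42 (95% interval 0.04 to 0.81, adjusted p = 0.09265 from edgeR). It passed only without combination mouse 2 (0.55, adjusted p = 0.04631). H2-D1, the other classical heavy chain, had between 1836 and 2808 CPM with KN046 and between 2649 and 3442 CPM with the combination, a log2 difference of 0.38 (95% interval 0.01 to 0.76, adjusted p = 0.1177 from edgeR). B2m had 1677, 1176, 1261 and 1336 CPM with KN046 and 1713, 1152, 984.3 and 1570 CPM with the combination. The groups overlapped almost fully, and the log2 difference of -0.01 had a 95% interval of -0.40 to 0.38.

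Across the 10 genes, 5 had every combination mouse above every KN046 mouse (Tap2, Tapbp, Psmb8, Psmb9 and Psmb10), beside 7.9% of all genes tested. In the combination and SB525334 groups the same mice were high or low for most genes. Combination mouse 1 was highest of its group for 7 of the 10 genes and mouse 4 for the other 3, while mouse 2 was lowest for 9. SB525334 mouse 3 was lowest of its group for all 10 genes, and SB525334 mouse 4 highest for 9. The other groups had no such mouse, since KN046 mouse 1 was highest for 5 genes and lowest for 4, KN046 mouse 2 highest for 3 and lowest for 5, and control mouse 4 highest for 4 and lowest for 3.

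**Figure D2:**
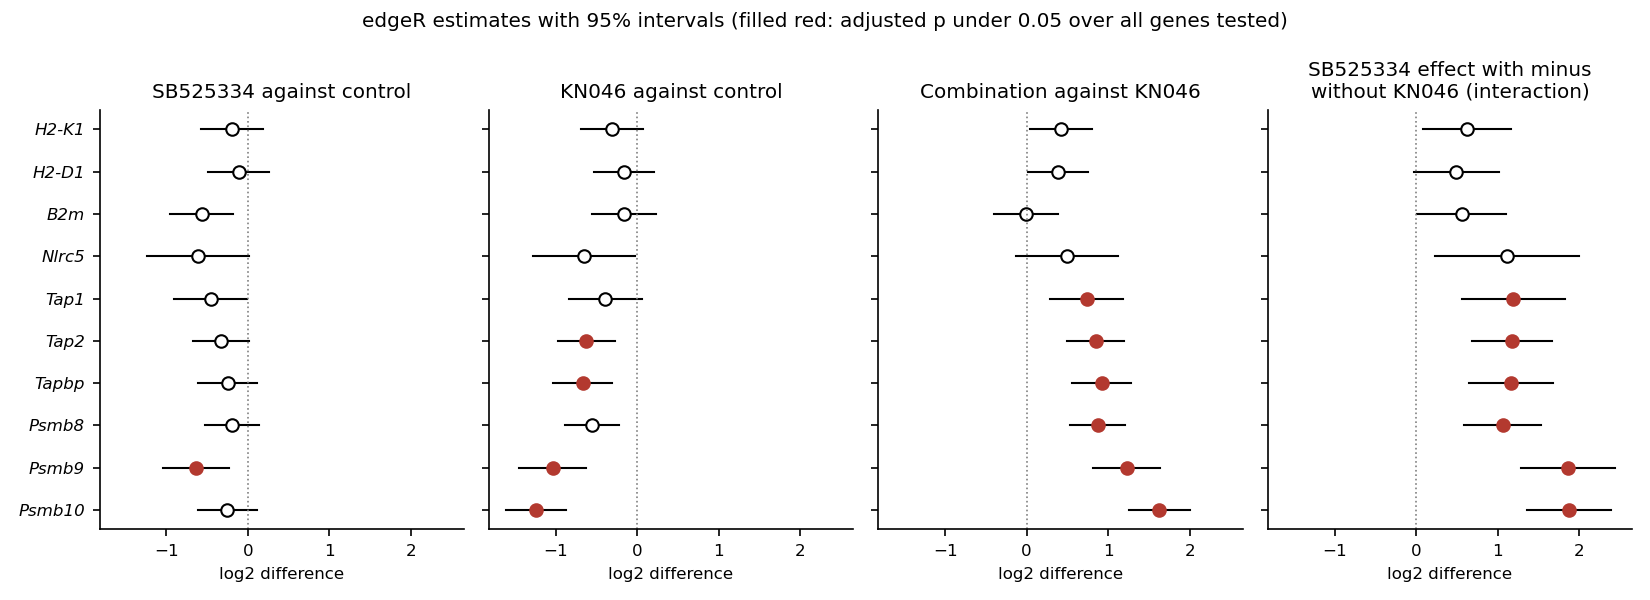
Log2 differences from edgeR (x axis) of the 10 genes (y axis) in 4 contrasts, with 95% intervals as lines and red filled points for an adjusted p under 0.05 over all genes tested. The red points are 1 with SB525334, 4 with KN046, 6 with the combination against KN046 and 6 in the interaction, and the 3 heavy chain and β2-microglobulin points are open in every panel.

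KN046 alone was compared with the control group to ask what checkpoint blockade did to the pathway. Of the 10 genes, 4 fell with KN046 (Psmb10, Psmb9, Tapbp and Tap2) and 0 rose, beside 2.4% of all genes tested that were lower and 1.6% that were higher. The log2 differences were -0.67 for Tapbp (standard error 0.173, adjusted p = 0.04275 from edgeR) and -0.62 for Tap2 (standard error 0.164, adjusted p = 0.04499 from edgeR). All 10 point estimates were below 0, with a median of -0.59 against -0.026 over all genes tested. For 5 genes (these 4 and Psmb8) every KN046 mouse lay below every control mouse, beside 6.65% of all genes tested. These calls rested on few libraries. With the similar control mice summed to 2 libraries, 0 of the 10 and 0 of 14241 genes tested were called by edgeR. In the fits with all 4 control mice, 6 of the 10 had an unadjusted p under 0.05 in edgeR, and DESeq2 called 5. The count was 1 without KN046 mouse 1 or mouse 3, where Psmb10 was the gene left, and 2 without any single control mouse, where Psmb9 and Psmb10 were left.

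SB525334 alone lowered 1 of the 10 genes compared with the control group, Psmb9, and raised 0, beside 9.22% of all genes tested that were lower and 0.394% that were higher. A single lower gene among 10 is close to that background. All 10 point estimates were below 0, with a median of -0.291 against 0.000591 over all genes. B2m, with 1058, 1014, 832.7 and 1215 CPM, lay in every SB525334 mouse below every control mouse (1248 to 1776 CPM), with a log2 difference of -0.57 (standard error 0.185) and an edgeR adjusted p of 0.06625. The adjusted p of B2m was 0.03322 in DESeq2, 0.2198 with the similar control mice summed, and from 0.04912 (without control mouse 2) to 0.2006 with a mouse left out. The call of Psmb9 was lost with the control mice summed (adjusted p = 0.1924) and without any single control mouse or SB525334 mouse 1, 2 or 3 (adjusted p from 0.07153 to 0.1576).

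The combination was not distinguished from the control group by these genes. In edgeR 0 of the 10 genes passed the test, and 0 did so in DESeq2, beside 1.37% of all genes that were higher and 9.74% that were lower. Of the point estimates 8 were above 0 and 2 below, with a median of 0.222 against 0.0129 over all genes tested. At an unadjusted p under 0.05, 1 gene was higher, Psmb10, with a log2 difference of 0.38 (95% interval 0.02 to 0.74, adjusted p = 0.2005 from edgeR). The intervals of the other 9 genes all included 0, and the widest was that of Nlrc5 (-0.77 to 0.47).

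Compared with SB525334 alone, the combination had 2 higher genes, Psmb9 and Tap1, and 0 lower, beside 0.544% of all genes that were higher and 3.03% that were lower. All 10 point estimates were above 0, with a median of 0.504 against 0.00806 over all genes tested. Psmb9 rose by a log2 difference of 0.83 (standard error 0.193, adjusted p = 0.01694 from edgeR) and Tap1 by 0.80 (standard error 0.213, adjusted p = 0.04358 from edgeR), and both overlapped between the groups. Psmb10 lay above every SB525334 mouse in all 4 combination mice, with a log2 difference of 0.63 (adjusted p = 0.05015 from edgeR). The count was 0 without SB525334 mouse 2 or 3 or combination mouse 1 or 4, 1 without SB525334 mouse 1, and 5 without combination mouse 2.

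The effect of SB525334 differed with and without KN046. This interaction, the difference between combination and KN046 minus that between SB525334 and control, was positive and past the threshold for 6 of the 10 genes and negative for 0, beside 1.73% of all genes tested called positive and 2.55% called negative. It was 1.88 on the log2 scale for Psmb10 (standard error 0.246, adjusted p = 0.0001728 from edgeR), 1.87 for Psmb9 (standard error 0.275, adjusted p = 0.0005509), 1.19 for Tap1 (standard error 0.301, adjusted p = 0.03047), 1.17 for Tap2 (standard error 0.231, adjusted p = 0.00616), 1.17 for Tapbp (standard error 0.244, adjusted p = 0.009333) and 1.07 for Psmb8 (standard error 0.224, adjusted p = 0.009528). The interaction of Nlrc5 was 1.11 (95% interval 0.23 to 2.00, adjusted p = 0.1721 from edgeR). With the control pairs summed, 5 of these 6 calls were made and Tap1 was lost (1.19, adjusted p = 0.1028). Tap1 was also lost without KN046 mouse 3, SB525334 mouse 1, 2 or 3, combination mouse 1 or 4, or control mouse 1 or 2, with an adjusted p from 0.05161 to 0.07725.

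Each inducible subunit of the immunoproteasome takes the place of a constitutive one, Psmb8 that of Psmb5, Psmb9 that of Psmb6 and Psmb10 that of Psmb7. Their ratio within a library does not depend on scaling between libraries. The ratio of Psmb10 to Psmb7 was 0.2445, 0.4497, 0.3171 and 0.4329 in the KN046 mice, 0.913, 1.004, 0.7311 and 0.7026 in the control mice and 1.483, 0.615, 0.868 and 1.093 in the combination mice. All KN046 mice lay below the mice of both other groups. The log2 ratio differed by 1.46 between combination and KN046 and by -1.24 between KN046 and control (exact two-sided permutation p = 0.02857 each, the smallest that 4 against 4 mice can give, adjusted p = 0.1071 over 15 tests).

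The ratio of Psmb9 to Psmb6 was between 0.3715 and 0.5676 in the control mice, between 0.1787 and 0.3269 with SB525334 and between 0.2055 and 0.2663 with KN046. Both single-agent groups lay wholly below the control mice, with log2 differences of -0.81 and -0.94 (exact permutation p = 0.02857, adjusted p = 0.1071 each). The combination mice had 0.7837, 0.2162, 0.3217 and 0.532 and spanned all of these values. The ratio of Psmb8 to Psmb5 overlapped between the groups in all 5 comparisons. After adjustment 0 of the 15 ratio tests passed 0.05, and 4 had an unadjusted p under 0.05. With a mouse left out, where the smallest exact p is also 0.02857, the unadjusted p rose to 0.05714 for Psmb9 to Psmb6 with SB525334 without SB525334 mouse 3 or control mouse 1 or 2, and for Psmb10 to Psmb7 between combination and KN046 without KN046 mouse 1 or 3. That of Psmb9 to Psmb6 between combination and KN046, 0.1429 with all mice by the exact permutation test, was 0.02857 without combination mouse 2. With the similar control mice summed, 4 against 2 libraries cannot go below an exact p of 0.06667.

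**Figure D3:**
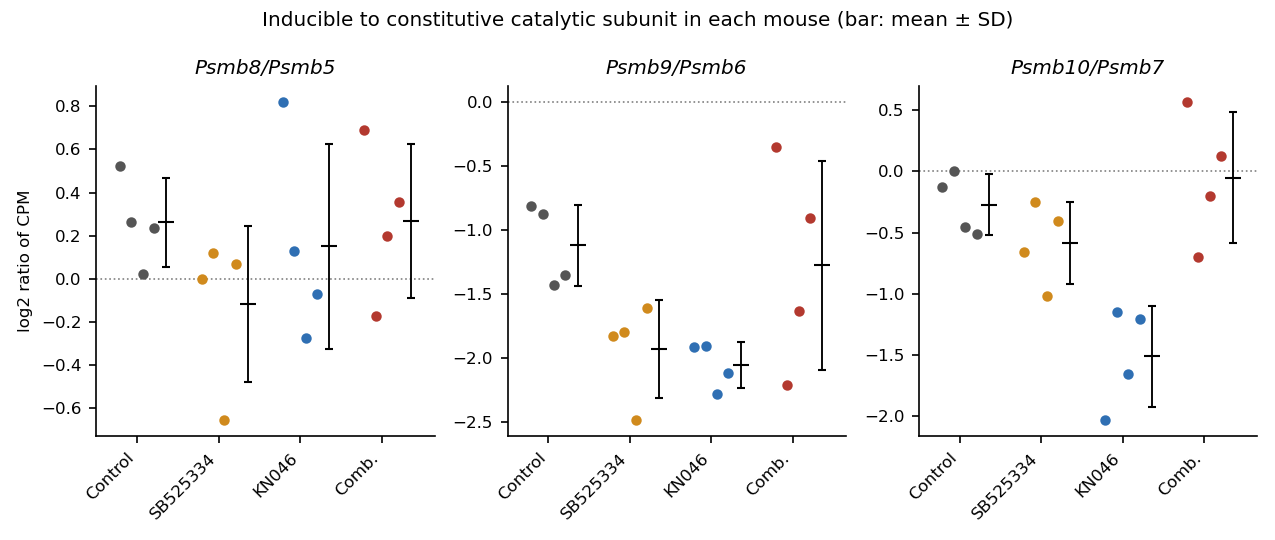
Log2 ratio of the CPM of each inducible catalytic subunit to its constitutive counterpart (y axis) in each mouse by group (x axis), with points for mice 1 to 4 from left to right, a bar for the mean ± SD and a dotted line at equal levels. The 4 KN046 mice lie below the control and combination mice for Psmb10 against Psmb7, while the groups overlap for Psmb8 against Psmb5.

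The rest of the pathway was described by lists written with earlier results of these data known. In the constitutive proteasome core, 3 of 14 genes rose with the combination compared with KN046 (Psmb5 by 0.73, adjusted p = 0.02151, Psma5 by 0.57, adjusted p = 0.008449, and Psma7 by 0.43, adjusted p = 0.04713, all from edgeR). Over all genes tested, 9.89% rose in that comparison. None of the 14 was called in the other 5 contrasts, where 0 to 4 of them had an unadjusted p under 0.05. The list's median difference between combination and KN046 was 0.366. Scaling by library totals alone gave 8 higher genes in the core in place of 3. Among the genes of peptide supply, both subunits of the interferon-inducible proteasome activator PA28 moved like the immunoproteasome. In the control group Psme2 averaged 70.66 ± 10.3 CPM, against 41.52 ± 6.36 in KN046 mice and 83.29 ± 9.15 in combination mice (SD, n = 4 each). It fell with KN046 (-0.77, adjusted p = 0.01252 from edgeR) and rose with the combination compared with KN046 (2.01-fold, adjusted p = 1.34e-05). Psme1 had differences of -0.42 (adjusted p = 0.04985) and 0.52 (adjusted p = 0.003328). Psme4, the PA200 activator, was lower with the combination than with KN046 (-0.32, adjusted p = 0.02385), and the other 7 genes of the list were not called in that comparison.

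Of the 9 genes of peptide loading and trimming, Tapbpl (TAPBPR, an editor of bound peptides) was the only gene called. A count of 1 among 9 is close to the 9.89% of all genes tested that were higher with the combination than with KN046. With KN046 compared with control, 2.4% of all genes were lower. Its mean was 35.12 ± 3.17 CPM in control, 20.89 ± 1.65 in KN046 and 38.93 ± 8.36 in combination mice. It fell with KN046 (-0.75, adjusted p = 0.01664 from edgeR) and rose with the combination compared with KN046 (0.90, adjusted p = 0.000137). The chaperones and trimming enzymes of the list had a median difference of -0.108 between combination and KN046 when counted together with Tapbpl.

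Other class I heavy chains did not move as a group. With the combination compared with KN046, H2-T22 (0.72, adjusted p = 0.003151 from edgeR) and H2-M3 (0.59, adjusted p = 0.003433), nonclassical heavy chains, rose, and the counts of H2-T22, like those of H2-Q7 and H2-T23, are uncertain because of the sequence they share with other heavy chains. H2-Q10, a heavy chain that the liver secretes, H2-Q1 and the lipid-presenting Cd1d1 fell. Mean H2-Q10 was 192 ± 6.37 CPM in control, 16.75 ± 7.42 in SB525334, 145 ± 56.4 in KN046 and 0.6501 ± 0.107 in combination mice (SD, n = 4 each), an order that the summed hepatocyte markers shared. The part of the tissue's hepatocyte content in the fall of H2-Q10 was not tested. H2-T23, the Qa-1 ligand of the NKG2A receptor, and H2-Q7 fell with SB525334 (0.5548-fold, adjusted p = 0.007126, and 0.4998-fold, adjusted p = 0.009603 from edgeR), and their log2 interaction was positive (1.293, adjusted p = 0.01194, and 1.381, adjusted p = 0.02802). Of 14 such genes tested, 5 were lower with SB525334 and 0 were called with KN046 in edgeR, where 5 had an unadjusted p under 0.05 and DESeq2 called 2. Over all genes tested, 9.22% were lower with SB525334 and 2.4% with KN046.

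The list of interferon receptors and signal genes held members of both the type I and the interferon-γ pathway. Of 15 genes tested, 7 rose and 0 fell with the combination compared with KN046, beside 9.89% of all genes that were higher, and 10 of the 15 point estimates were above 0. With KN046 compared with control 5 fell and 0 rose, beside 2.4% of all genes that were lower. Irf1, the transcription factor that acts on Tap1, Psmb9 and B2m, averaged 131 ± 10.7 CPM in control, 53.84 ± 32.9 in KN046 and 148.1 ± 45.8 in combination mice. It fell with KN046 (-1.28, adjusted p = 0.04 from edgeR) and rose with the combination compared with KN046 (1.46, adjusted p = 0.003576). Socs1, a feedback inhibitor that interferon induces, rose in the latter comparison by 1.35 (adjusted p = 0.002342), and Irf8, Irf2, Ifngr2 and Ifngr1 by 0.37 to 0.79. Irf7 was called lower with SB525334 alone (-1.32, adjusted p = 0.02451). Ifng itself, the ligand, was too low to be tested, at 0 to 16 counts per library.

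**Figure D4:**
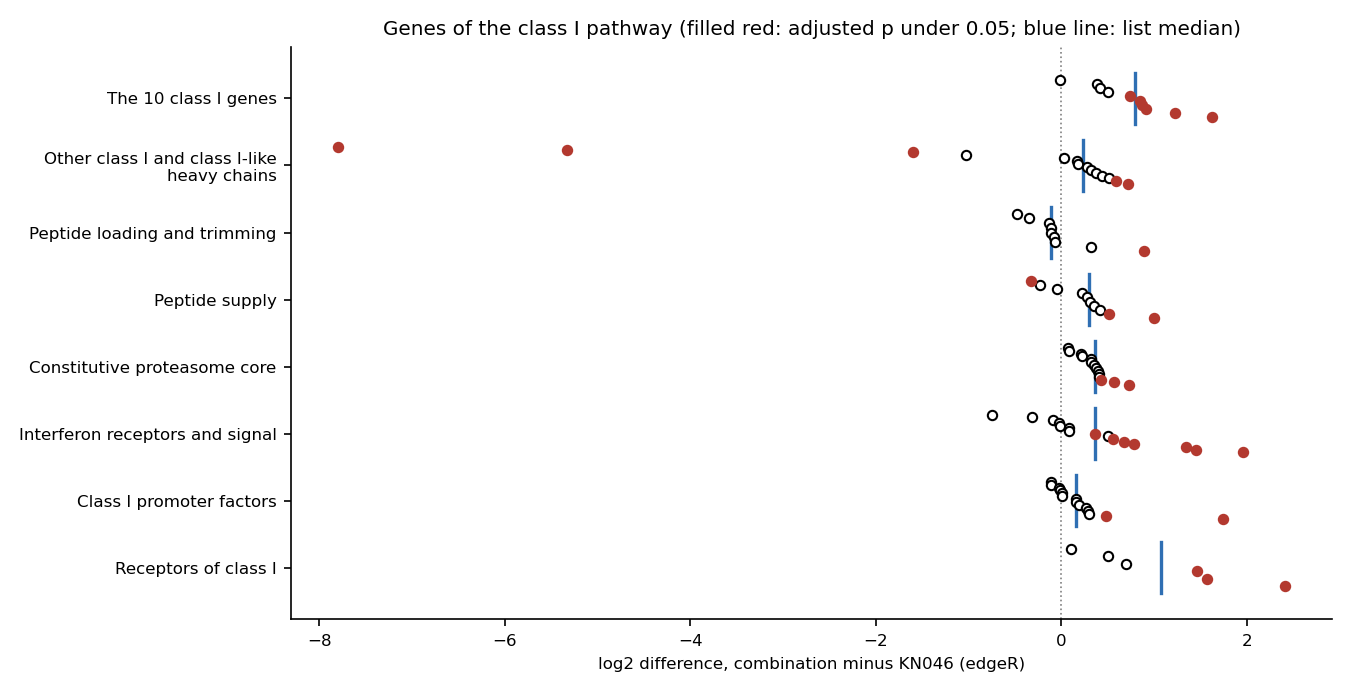
Log2 difference between combination and KN046 from edgeR (x axis) for every tested gene of the 10 class I genes and 7 pathway lists (y axis), with red filled points for an adjusted p under 0.05 over all genes tested and a blue line at each list's median. The 10 class I genes have a median of 0.792 and the constitutive core 0.366, and the 3 points far to the left are H2-Q10, H2-Q1 and Cd1d1.

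Among 14 class I promoter factors, 2 rose with the combination compared with KN046, Ciita by 1.74 (adjusted p = 0.007481 from edgeR) and Nfya by 0.49 (adjusted p = 0.04551). This count is close to the 9.89% of all genes tested that were higher. Ciita encodes the transactivator of class II genes, averaged 27.12 ± 11.2 CPM in control and 7.074 ± 4.21 in KN046 mice, and fell in that comparison (-1.94, adjusted p = 0.02686). The RFX, NF-Y and CREB factors that bind with NLRC5 were otherwise not called, and the list median was 0.163.

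Some receptors of class I molecules moved in the same comparisons. Of 6 such genes tested, 3 fell with KN046, beside 2.4% of all genes. With the combination compared with KN046, 3 rose, beside 9.89% of all genes. Klrd1, Klrk1 and Pirb were called in neither comparison. Cd8a, the coreceptor chain of class I-restricted T cells, averaged 10.42 ± 0.565 CPM in control, 7.455 ± 1.54 in SB525334, 3.873 ± 1.48 in KN046 and 10.74 ± 4.4 in combination mice. Cd8a fell with KN046 (-1.42, adjusted p = 0.02369 from edgeR) and rose with the combination compared with KN046 (1.47, adjusted p = 0.001522), and Cd8b1 did so as well (-2.11, adjusted p = 0.01664, and 2.41, adjusted p = 0.000242). Klrc1, which encodes NKG2A, fell with KN046 (-1.52, adjusted p = 0.04799) and rose with the combination compared with KN046 (1.57, adjusted p = 0.01103). Klrd1, its partner CD94, fell with SB525334 (-1.35, adjusted p = 0.01956). With the control pairs summed, none of the genes of the 7 lists was called with KN046 compared with control.

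With KN046 against control and with the combination against KN046, T cell and NK cell markers moved in the direction of the class I genes. Markers of other cell types did not all do so. The summed level of 10 T cell markers, none of which was at 0 throughout a group, was between 43.64 and 54.24 CPM in control mice, 25.3 to 43.21 in SB525334 mice, 9.5 to 24.94 in KN046 mice and 38.52 to 83.43 in combination mice. With the combination compared with KN046, 10 of 10 T cell markers rose, and with KN046 compared with control 6 of 10 fell. Over all genes tested, 9.89% rose and 14.5% fell in the first comparison, and 2.4% fell in the second. The 7 NK cell markers summed to between 14.37 and 16.9 CPM in control mice, 10.33 to 15.85 in SB525334 mice, 5.197 to 13.56 in KN046 mice and 13.92 to 26.68 in combination mice, and 2 of the 4 that were tested rose between KN046 and the combination. The 9 macrophage markers summed to between 599.2 and 1124 CPM with KN046 and between 937.8 and 1053 with the combination, with 5 of 9 higher and 1 lower. Of 8 dendritic cell markers 0 were called in that comparison. The 8 neutrophil markers summed to between 189.3 and 208.3 CPM in control mice, 0.637 to 10.2 in SB525334 mice, 7.196 to 15.98 in KN046 mice and 1.474 to 248.1 in combination mice, with Ly6g at 0 in every SB525334 mouse. Of these markers 8 fell with SB525334, beside 9.22% of all genes tested, 4 fell with KN046, and 3 rose with the combination compared with KN046. The 5 Kupffer cell markers all fell in the last comparison, with a median of -5.02, and 1 of 6 B cell markers tested rose. Single calls in a list, as for the B cell markers and the lower macrophage marker, are close to the shares over all genes. Within groups, the T cell sums and the class I genes were not always in the same order. Combination mice 1 and 4, with the highest mean standardized level of the 10 genes (1.71 and 1.45), had T cell sums of 66.8 and 83.43 CPM, and mouse 2, the lowest (-0.18), had 38.52 CPM, the lowest sum of its group. Mouse 3 was lowest for both with SB525334 (-1.32 and 25.3 CPM) and with KN046 (-1.06 and 9.5 CPM). Control mice 1 to 4 had class I means of 0.219, 0.396, 0.552 and 0.64 and T cell sums of 50.52, 54.24, 44.83 and 43.64 CPM. SB525334 mouse 4 was highest of its group for the class I genes but not for the T cell sum. KN046 mice 1 and 4 had nearly equal class I means (-0.659 and -0.678) and T cell sums of 14.28 and 20.47 CPM. Whether the class I genes changed within tumor cells or with the share of immune cells was not tested.

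**Figure D5:**
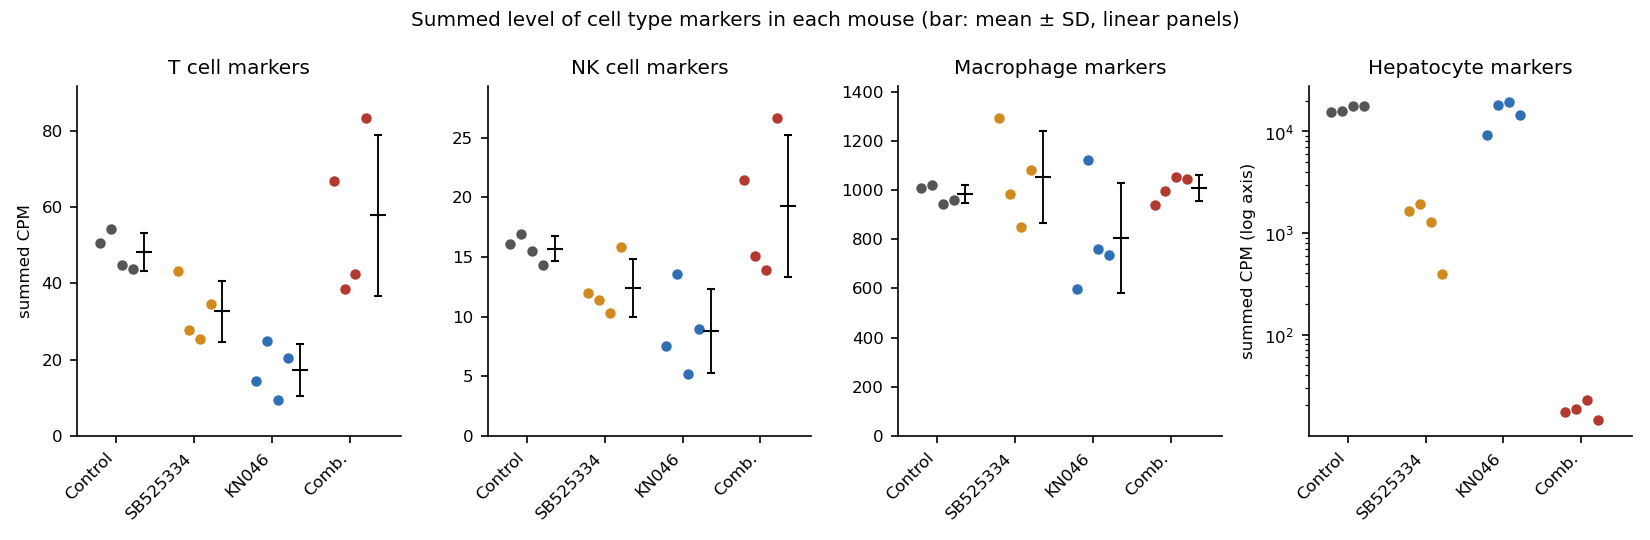
Summed CPM of the T cell, NK cell, macrophage and hepatocyte markers (y axes, linear from 0 except the hepatocyte panel, which is logarithmic) in each mouse by group (x axis), with a bar for the mean ± SD in the linear panels. All 4 KN046 mice lie below the other groups for T cell markers, and the hepatocyte markers of the combination mice lie between 14.42 and 22.76 CPM.

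The genes most like the 10 were sought among 10849 genes with a mean of at least 5 CPM. The measure was the root mean square difference, over the 16 mice, between a gene's standardized log2(CPM + 1) and the mean of the 10 members. Among the 8 genes outside the members for which it was smallest were H2-T22 (0.356), Prf1 (0.406), Ube2l6 (0.448), Samhd1 (0.451), Cyfip2 (0.47), H2-DMb1 (0.475) and Gbp2 (0.487), where the median of all genes was 1.3. Prf1 encodes perforin of cytotoxic lymphocytes, Ube2l6 the conjugating enzyme of ISG15, and Gbp2 an interferon-induced GTPase. H2-DMb1 is a chain of the peptide editor of class II molecules. Among the members the closest to their own mean were Psmb9 (0.291), Tapbp (0.349) and Tap2 (0.362), and the farthest were Nlrc5 (0.778) and B2m (0.848).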

How the data were processed

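RNA of liver metastases was sequenced by the authors on an Illumina HiSeq instrument. The authors deposited raw counts per gene, made, per the submitters' processing notes, with cutadapt 2.7, HISAT2 2.2.1 and HTSeq 2.0.4 on GRCm39. The deposited normalized values, for which the notes name DESeq2 1.38.3, were not used. Strand and multi-mapping settings are not given in the sources used here. Identifiers were matched to GENCODE M39 for 21770 of 21959 genes. Sequences are from RefSeq.

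The raw counts were analysed with edgeR 4.0.16 (R 4.3.3). Genes were kept by filterByExpr at 10 counts, libraries were scaled by TMM, and 1 quasi-likelihood model held the 4 groups. Adjustment was by Benjamini-Hochberg, with 0.05 as the threshold. The biological coefficient of variation was 20.1%. Ratios were compared by exact permutation. The fit was tested on simulated data.

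Alternatives were DESeq2 1.42.0, other scalings, filters, designs and each mouse left out. The members and lists were chosen with earlier results of these data known. Named genes were the members, up to 6 called genes per list, the constitutive counterparts, Ifng, Irf1 and Cd8a, and the 8 genes most like the members. SDs and intervals are over libraries, and total counts limit precision only for low genes such as Ifng. Replicate numbers were compared between groups as a check of pairing. Comparisons of treatments with the control group share its mice. The T cell gene Trac had no row. The values of 1 named gene are not reported here, and counts over lists include it.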

Additional observations from a re-analysis of the deposited data

Results flagged for a closer look

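Tap2 in control mouse 2 stood apart from its group at 42.31 CPM, where the other control mice had 32.45 to 33.37 CPM. The log2 ratio of Psmb8 to Psmb5 in SB525334 mouse 3 was -0.6558, where the other mice of the group had -0.002699 to 0.1206. Such gaps were found in 2 of 52 groups of 4 values, where chance gives 2.6.

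The SB525334 effect differed between mice with and without KN046 by a log2 interaction of 1.194 for Tap1, 1.174 for Tap2, 1.166 for Tapbp, 1.065 for Psmb8, 1.867 for Psmb9 and 1.88 for Psmb10, each past the threshold in edgeR. In the same mice the median interaction was 9.15 for the neutrophil markers (8 of 8 called), 2.42 for the NK cell markers (3 of 4), 2.28 for the T cell markers (8 of 10) and -1.27 for the Kupffer cell markers (2 of 5, negative). The summed neutrophil markers were 189.3 to 208.3 CPM in control mice, but at most 10.2 with SB525334 and 15.98 with KN046. In combination mice 1 to 4 these sums were 8.575, 15.78, 1.474 and 248.1 CPM, so mouse 4 stood apart. Over all genes tested, 1.73% were called positive and 2.55% negative. The part of these markers' cells in the class I values was not tested.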

How the results depend on the processing

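Over 1090 fold changes of the members under an alternative, 1009 kept direction and side of the threshold, 56 fell short of it, 17 newly passed it and 8 changed sign. The count of the 10 genes called between combination and KN046 (6), in the interaction (6) and between combination and control (0) stayed within 1.5-fold under every alternative run. With SB525334 (1) it was 2 in DESeq2, with only the groups compared and with the replicate block, and 0 with control pairs merged or library totals alone. With KN046 (4) it was 0 with control pairs merged and 2 with library totals alone. Between combination and SB525334 (2) it was 4 in DESeq2, and 1 with control pairs merged, library totals alone or only the groups compared. Each mouse left out in turn gave 0 to 1 with SB525334, 1 to 5 with KN046 and 0 to 5 between combination and SB525334.

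B2m changed sign between combination and KN046, to 0.000806 with TMM without hepatocyte genes and 0.02766 with library totals alone, and from -0.1395 to 0.128 with a mouse left out. With a mouse left out, Nlrc5 between combination and control went from -0.4754 to 0.07521. The log2 ratio Psmb8/Psmb5 went from -0.3338 to 0.0314 with KN046, from -0.1348 to 0.1537 between combination and control and from -0.02522 to 0.34 between combination and KN046, and Psmb9/Psmb6 from -0.4672 to 0.1522 between combination and control. The cause was not tested. Same-numbered mice had a correlation of deviations over 0.1 in 7 of 24 pairings (-0.37 to 0.407). The check has no reference value for unpaired mice, so it cannot show whether the numbers pair the mice. The replicate block left the count between combination and KN046 at 6.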
